A study of Mus musculus with 12 samples.

Results

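Small nucleolar RNA (snoRNA) genes were examined in G2A and WT mouse fetal livers at E12.5. Their members were all liver entries whose symbol begins with Snora or Snord and a number, and there were 105 of them among 23235 liver entries. Of these, 36 carry Snora symbols (box H/ACA) and 69 carry Snord symbols (box C/D). The set was taken up because Snord53 was listed at 0 in every G2A liver, so the liver values of Snord53 are given as a description with no test.

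The livers were 3 G2A livers and 3 WT livers as their controls; the labels describe the livers as littermate pairs and give no treatment. Immortalized mouse embryonic fibroblasts (MEFs) formed the other experiment, with 2 G2A and 3 WT libraries used here, and they share no library with the livers. As background, G2A is an allele of Psmc1, which encodes the proteasome ATPase Rpt2, and it replaces the glycine that carries the N-myristoyl group with alanine. The labels give neither the number of MEF lines behind the libraries nor whether RNA was selected by poly(A) tail or depleted of ribosomal RNA.

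Box C/D snoRNAs guide the 2′-O-methylation of ribosomal and spliceosomal RNA with the proteins Fbl, Nop56, Nop58 and Nhp2l1. Box H/ACA snoRNAs guide pseudouridylation with Dkc1, Gar1, Nhp2 and Nop10. In mammals most snoRNAs lie in introns of host genes, many of which encode ribosomal or translation proteins, and they are released by trimming after the host transcript is spliced.

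The sequences below are examples of members whose liver values differed between the genotypes without overlap, together with Snord12, the member with the highest mean FPKM (fragments scaled to gene length and sequencing depth). Both classes are shown with some of their defining elements marked, and the H box of box H/ACA RNAs was not searched. Sequences and positions come from the NCBIM37 genome and its Gencode annotation, read 5′ to 3′ on the gene's own strand. The liver values follow RefSeq lengths instead, so a printed sequence can be longer than the gene that was quantified. Among 87 members annotated in NCBIM37, the RefSeq length was shorter in 72, equal in 9 and longer in 6. Snord12, for example, has 90 bases here and 66 in RefSeq. Capitals mark ACA near the 3′ end in box H/ACA RNAs, and TGATGA (box C) and CTGA (box D) in box C/D RNAs.

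Snora16a: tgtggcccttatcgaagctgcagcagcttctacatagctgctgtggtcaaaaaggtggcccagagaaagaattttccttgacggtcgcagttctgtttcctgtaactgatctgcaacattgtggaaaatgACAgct
Snora31: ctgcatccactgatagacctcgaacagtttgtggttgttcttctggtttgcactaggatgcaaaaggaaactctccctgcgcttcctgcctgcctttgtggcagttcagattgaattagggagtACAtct
Snora70: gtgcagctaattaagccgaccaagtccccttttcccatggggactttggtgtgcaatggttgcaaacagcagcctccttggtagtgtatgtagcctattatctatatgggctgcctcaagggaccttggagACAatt
Snord83b: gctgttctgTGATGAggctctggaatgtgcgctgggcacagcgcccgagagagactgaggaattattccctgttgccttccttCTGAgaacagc
Snord32a: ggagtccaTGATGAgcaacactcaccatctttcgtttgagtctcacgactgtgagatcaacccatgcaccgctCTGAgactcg
Snord100: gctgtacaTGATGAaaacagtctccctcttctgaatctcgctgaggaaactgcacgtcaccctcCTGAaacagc
Snord12: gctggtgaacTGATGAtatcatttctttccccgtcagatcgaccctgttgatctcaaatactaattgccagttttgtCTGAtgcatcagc

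These genes lie at chr4:131865380-131865515 (Snora16a, plus strand, intron of Snhg12), chr14:76247712-76247841 (Snora31, plus, intron of Tpt1) and chrX:71517823-71517959 (Snora70, plus, overlapping an exon of Rpl10). Snord83b lies at chr15:79908928-79909021 (minus, intron of Rpl3), Snord32a at chr7:52382752-52382834 (minus, overlapping an exon of Rpl13a), Snord100 at chr10:23505556-23505629 (minus, intron of Rps12) and Snord12 at chr2:166890776-166890865 (plus, overlapping an exon of 1500012F01Rik). Snord53 is not shown. Of 55 box C/D members with a sequence in that annotation, 33 (60%) held TGATGA within their first 20 bases and 50 (90.9%) held CTGA within their last 15 bases. Of 32 box H/ACA members, 30 (93.8%) held ACA within their last 8 bases, against 10.9% of the box C/D members, and none held TGATGA at the start while 2 (6.25%) held CTGA near the end. The search used the gene's own strand, and the motifs do not overlap.

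The FPKM scale of the livers corresponded to about 17267000 fragments per library, estimated from 127 single-exon genes, and the MEF libraries held 36415586 to 37695116 gene reads. All 8 hepatoblast and all 8 erythroid markers were detected, as were the other 31 of the 47 marker genes in the liver table. Summed mesenchyme and fibroblast markers did not overlap between the genotypes, at 1316, 1855 and 935 FPKM in G2A livers and 742, 539 and 699 FPKM in WT livers. By gene, only 3 of the 7 (Col1a1, Col1a2 and Col3a1) were higher without overlap. Averaged over the 7 genes, log2 values relative to the WT mean were 0.740, 1.011 and 0.187 in G2A livers. In WT livers they were 0.246, -0.270 and 0.024, so G2A 3 lay below WT 1. Summed erythroid markers were at 53359, 68869 and 24373 FPKM in G2A livers and 17246, 28050 and 16455 FPKM in WT livers. Most of that sum came from the embryonic globins Hba-x, Hbb-y and Hbb-bh1, whereas the other 5 of the 8 erythroid markers had log2 fold changes below 0 (median of the list -0.36), with Klf1 (-0.69) and Epor (-0.48) lower in G2A livers without overlap. The part of these cell types in the snoRNA values was not tested. Psmc1 averaged 152 ± 8.08 FPKM in G2A livers and 179 ± 1.90 FPKM in WT livers (SD, n = 3 each; adjusted p = 0.114, limma), which does not check a genotype that changes the coding sequence. The library G2A 3 stood apart: across the table, 2 genes were called higher and 1 lower with all libraries, and 1578 and 1562 without G2A 3. Liver FPKM and MEF values were never set on 1 scale.

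FPKM values of the snoRNA genes rested on very few reads. For 76 of the 105 members every liver value was a whole multiple of a fixed step, to within 0.0001 of a read, once each library's scale (0.978 to 1.02 of the mean) was taken out. For Snord11, Snord19, Snord38a, Snord67 and Snord91a, with only 1 library above 0, this held by construction. The step is the FPKM given by 1 read. It followed the annotated RefSeq length of the gene: 73 of the 76 members lay within 0.1% of the value expected from an effective length with fragments of mean 200 and SD 80 bases and a shortest fragment of 48 bases. Snora28, Snora62 and Snord35b lay off it. In Snora33, Snora62, Snord15a and Snord72 the values themselves allowed a larger step, and the step was divided to match the length. Before that division 70 of the 76 members lay within 0.1%. The shortest fragment, tried from 44 to 52 bases, and the overall scale were set from these same members, so the match is a description. Of the remaining members, 23 were listed at 0 in all 6 livers, and Snora24, Snora26, Snora47, Snord1a, Snord45c and Snord7 had values that were not whole reads.

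**Figure D1:**
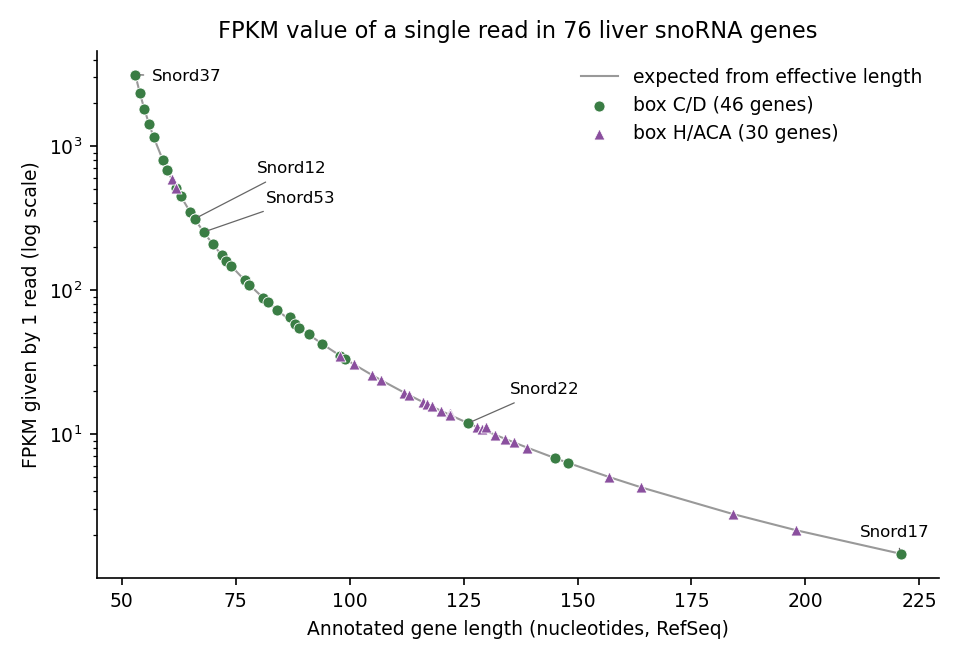
FPKM given by 1 read (log axis, mean library scale) against annotated gene length in nucleotides for the 76 snoRNA genes whose liver values were whole reads, box C/D as circles and box H/ACA as triangles. The line joins the values expected from the effective length; 1 read gave 1.47 FPKM in Snord17 and 3136 FPKM in Snord37.

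The FPKM given by 1 read ranged from 1.47 in Snord17, with 221 annotated bases, to 3136 in Snord37 and Snord70, with 53 bases, a ratio of 2137. The same FPKM therefore stood for very different numbers of reads. Of the 456 library values of the 76 members, 90 were 0 and 169 were 1 to 3 reads. The median member had 15.5 reads over the 6 livers together, 28 members had at most 10, and 12 had at least 60. Members held 3.33 to 5.40% of all FPKM in G2A livers and 6.03 to 6.56% in WT livers, but only 0.00220 to 0.00303% of the fragments. PCR copies could not be recognised, so all intervals below cover counting error only.

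Snord53, a box C/D RNA annotated with 68 bases, was at 0, 0 and 0 FPKM in G2A livers and at 512, 497 and 253 FPKM in WT livers. These values were 0, 0 and 0 reads in G2A livers and 2, 2 and 1 reads in WT livers. The 5 WT reads, pooled over the 3 WT livers, have an exact 95% Poisson interval of 1.62 to 11.7 reads. In a single library a count of 0 allows up to 3 reads, which is 742, 765 and 774 FPKM in G2A 1, 2 and 3. Those single-library limits lie above every WT value, but they are not comparable with the pooled WT interval. A limit pooled over the 3 G2A livers would be lower per library and was not computed. In reads, both genotypes were at or under the floor of 3 per library, and no fold change is given. Snord53 was not detectable in G2A livers at this depth.

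Snord53 was the only member at 0 in all livers of 1 genotype and above 0 in all of the other. Snord72 came next, with 0, 0 and 0 reads in G2A livers and 0, 2 and 2 reads in WT livers. Just outside the criterion on the other side was Snord100, with 1, 0 and 0 reads in G2A livers and 4, 2 and 3 reads in WT livers. Altogether 8 members had reads in only 1 genotype, 2 of them only in G2A and 6 only in WT, and none had more than 5 reads. Of the 9 members with 4 to 6 reads, 2 (Snord53 and Snord72) were seen in only 1 genotype. Among 631 other small RNA genes, Mir142 had the opposite pattern with 1, 3 and 1 reads in G2A livers and 0, 0 and 0 reads in WT livers. Among 22499 other genes, 30 were at 0 in all WT and above 0 in all G2A livers, and 28 were at 0 in all G2A and above 0 in all WT livers.

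Summed over the 76 members, G2A livers had fewer snoRNA reads. The sums were 403, 378 and 424 reads in G2A livers (exact 95% Poisson intervals 365 to 444, 341 to 418 and 385 to 466) and 509, 533 and 496 reads in WT livers (466 to 555, 489 to 580 and 453 to 542). No G2A liver reached any WT liver. On a common library scale this was 402 ± 26.8 reads in G2A livers and 512 ± 13.7 reads in WT livers (SD, n = 3 each), a ratio of 0.786. No p is given for this sum, since the members were chosen with the results known. Without G2A 3 the ratio was 0.757, without Snord53 it was 0.789, and without the 5 members with the most reads it was 0.824. In bulk tissue fewer cells of a type and less RNA per cell cannot be told apart.

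Box C/D members had 165, 157 and 163 reads in G2A livers and 214, 242 and 235 reads in WT livers, a scaled ratio of 0.705, with no overlap. Box H/ACA members had 238, 221 and 261 reads in G2A livers and 295, 291 and 261 reads in WT livers, a ratio of 0.853. Here G2A 3 equalled WT 3. The difference between the classes was not tested. By member, 46 had fewer reads in G2A than in WT livers, 23 had more and 7 had equal numbers.

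**Figure D2:**
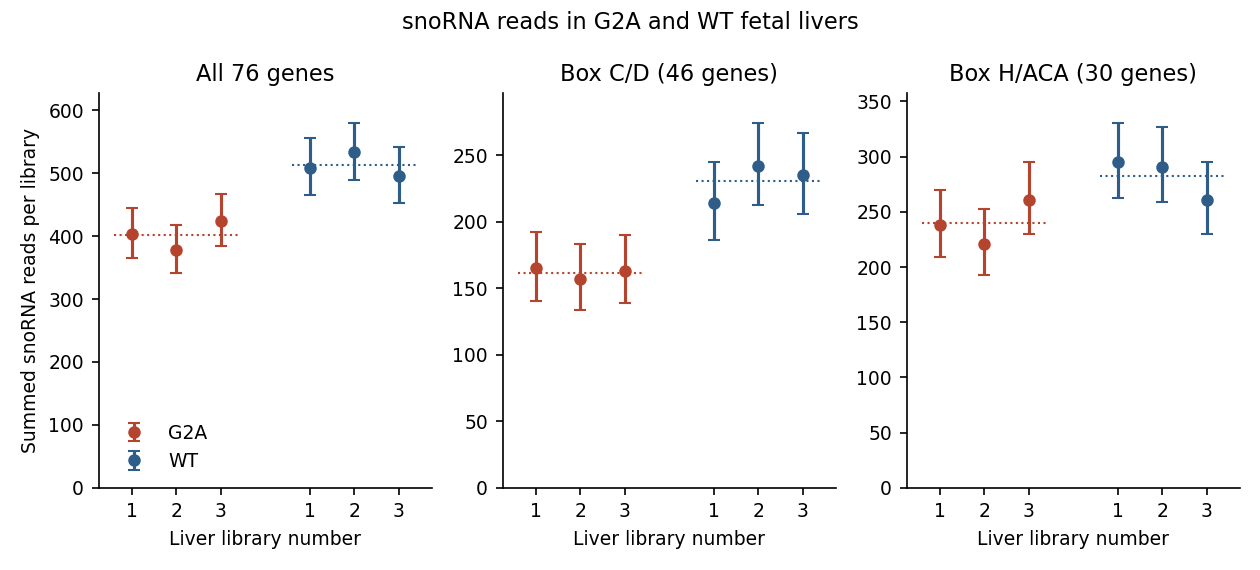
Summed snoRNA reads in each liver library (points; G2A left, WT right), for all 76 genes and for both classes, with exact 95% Poisson intervals as bars and group means as dotted lines. The G2A sums for all genes lie between 378 and 424 reads and the WT sums between 496 and 533 reads; the box H/ACA sums touch at 261 reads.

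In the fit across all genes, 66 of the 105 members passed the filter of at least 1 FPKM in at least 3 livers, and 1 of these, Snord53, passed only through the WT livers. Across 12938 genes tested with limma on log2(FPKM + 1), 0.0155% were called higher and 0.00773% lower in G2A livers at an adjusted p under 0.05. No member was called higher. Snord53 was the only member called lower and also the only gene called lower, so the share of 0.00773% is Snord53 itself. As its zeros chose the set, nothing is read from that call. At an unadjusted p under 0.05 stood 14 members (21.2%), against 21.4% of all genes, 2 of them higher and 12 lower. The median log2 fold change of the tested members was -0.37, and -0.35 without Snord53, against 0.01 over all genes. Among the 25 tested members with at least 30 reads, 19 had a log2 fold change below 0, the median was -0.44 and the range -1.09 to 0.61, with a lowest adjusted p of 0.0902. Without G2A 3, 8 of 62 tested members were called lower and none higher, beside 12.2% and 12.3% of all genes. Those 8 were Snora16a, Snora31, Snora61, Snora68, Snora70, Snord22, Snord53 and Snord83b; without Snord53 they were 7 of 61 (11.5%).

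In FPKM, 11 tested members (16.7%) were lower in G2A livers with no overlap between the genotypes, against 15.7% of all genes. Without Snord53, whose zeros chose the set, 10 of 65 (15.4%) were, so the share was near the background. Only 2 members (3.03%) were higher with no overlap, against 11.8% of all genes. For 2 of the 11 lower members and 1 of the 2 higher members the read numbers were tied at the nearest libraries, and only the library scale separated them.

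Snord22, a box C/D RNA from the noncoding host gene Snhg1, had the most reads of all members. It had 53, 36 and 46 reads in G2A livers and 65, 69 and 83 reads in WT livers, with no overlap. Its mean was 535 ± 94.5 FPKM in G2A livers and 858 ± 113 FPKM in WT livers (SD, n = 3 each), a log2 fold change of -0.69 (SE 0.16) that was not called (adjusted p = 0.111, limma). Without it the summed ratio of all members was 0.813.

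Snora16a, a box H/ACA RNA from the noncoding host gene Snhg12, had 6, 8 and 12 reads in G2A livers and 15, 20 and 19 reads in WT livers. On the log2 scale the difference was -1.09 (SE 0.26) with an adjusted p of 0.115 (limma), and -1.36 without G2A 3 (adjusted p = 0.0104). Snora31, from Tpt1, the gene of the translationally controlled tumour protein, had 7, 8 and 7 reads in G2A livers and 13, 12 and 10 reads in WT livers. Here the log2 difference was -0.66 (SE 0.11) with an adjusted p of 0.0902, and -0.64 without G2A 3 (adjusted p = 0.0227). In both genes every G2A liver lay below every WT liver.

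Snora68, a box H/ACA RNA, had 17, 18 and 19 reads in G2A livers and 23, 29 and 24 reads in WT livers, a log2 fold change of -0.48 (SE 0.10; adjusted p = 0.101). Snora70, from Rpl10, had 11, 13 and 18 reads in G2A livers and 20, 23 and 21 reads in WT livers, a log2 fold change of -0.63 (SE 0.19; adjusted p = 0.145). Snora81, from the translation initiation gene Eif4a2, had 30, 33 and 28 reads in G2A livers and 42, 45 and 34 reads in WT livers, a log2 fold change of -0.40 (SE 0.12; adjusted p = 0.140). The genotypes did not overlap in any of the 3, although 1 read separated the nearest libraries of Snora81. Without G2A 3, Snora68 and Snora70 were called (adjusted p = 0.0202 and 0.00971).

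Among box C/D members, Snord83b, from Rpl3, had 2, 2 and 2 reads in G2A livers and 7, 4 and 6 reads in WT livers. The difference was -1.46 on the log2 scale (SE 0.21), with an adjusted p of 0.0902, of 0.0150 without G2A 3 and of 0.0328 without WT 2 (limma). Every G2A count of Snord83b lay under the floor of 3 reads per library. Its SE and p rest on the spread between libraries, which the equal G2A counts made small, and leave counting error out. Snord32a, from Rpl13a, had 6, 3 and 2 reads in G2A livers and 7, 6 and 7 reads in WT livers (adjusted p = 0.189). The Rpl13a snoRNAs are known from hamster and mouse cells for a role in lipid-induced stress; the 4 measured ones (Snord32a, Snord33, Snord34 and Snord35a) together had 21, 21 and 13 reads in G2A livers and 27, 22 and 32 reads in WT livers. Snord104, for which no host was found, had 6, 2 and 5 reads in G2A livers and 7, 9 and 6 reads in WT livers (adjusted p = 0.272). Snord100, from Rps12, is given above and had an adjusted p of 0.153, and of 0.00149 without G2A 1, which leaves 0 reads in G2A livers. Snord32a and Snord104 were tied at 6 reads, in WT 2 and WT 3.

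Both members that were higher in G2A livers without overlap in FPKM lay in protein-coding hosts. Snora28, from the initiation factor gene Eif5, had 17, 11 and 12 reads in G2A livers and 10, 7 and 9 reads in WT livers, a log2 fold change of 0.61 (SE 0.20; adjusted p = 0.161). Snord89, from the ubiquitin ligase gene Rnf149, had 5, 2 and 3 reads in G2A livers and 0, 2 and 1 reads in WT livers (adjusted p = 0.315), with a tie at 2 reads.

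**Figure D3:**
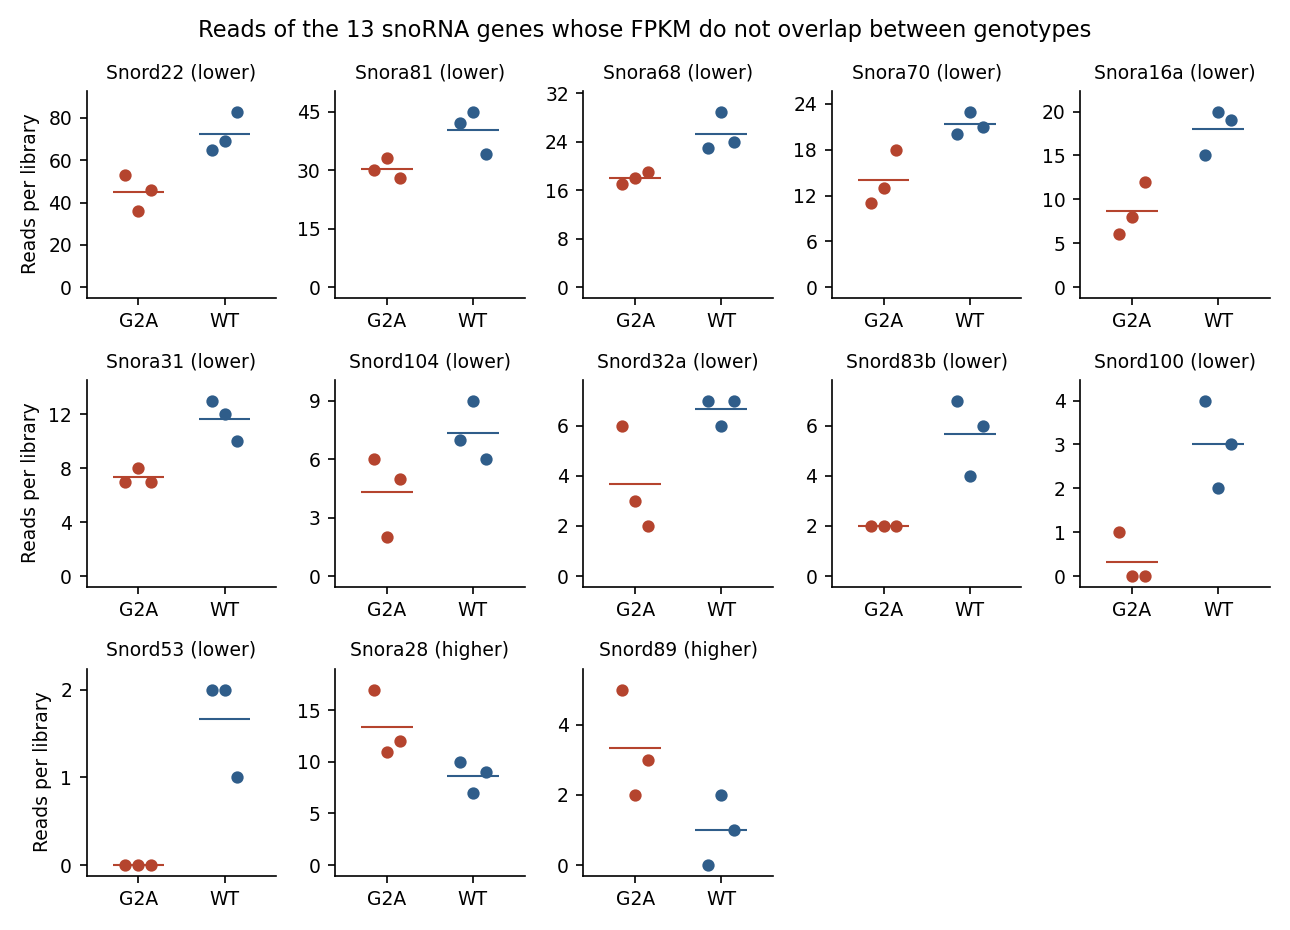
Reads in each liver library (points; G2A left, WT right; lines mark means) of the 13 snoRNA genes whose FPKM did not overlap between genotypes. The largest gap in reads is in Snord22, with 36 to 53 in G2A and 65 to 83 in WT; Snord53 has 0 in all G2A and 1 or 2 in WT livers.

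The order of the members by FPKM followed gene length more closely than read number. Snord12, from the noncoding gene 1500012F01Rik, ranked first at 4683 ± 719 FPKM in G2A livers and 6542 ± 1040 FPKM in WT livers (SD, n = 3 each), which was 18, 14 and 13 reads in G2A livers and 17, 24 and 22 reads in WT livers. These read numbers overlapped, and the log2 fold change was -0.48 (SE 0.17; adjusted p = 0.175). Snord42b, from the ribosomal protein gene Rpl23a, ranked second by mean FPKM on 14 reads: 0, 1 and 3 in G2A livers and 4, 2 and 4 in WT livers. Snord37, from the elongation factor gene Eef2, ranked 4 by mean FPKM on 5 reads, of which 0, 3 and 1 fell in G2A livers and 0, 0 and 1 in WT livers. Snord70, from Nop58, was still among the 10 highest by FPKM on 2 reads, 1 in G2A 2 and 1 in WT 3.

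The other members among the 10 highest by FPKM were equally thin. Snord65, from the noncoding gene 2410006H16Rik, had 2, 2 and 3 reads in G2A livers and 5, 4 and 2 reads in WT livers. Snord69, from the nucleolar protein gene Gnl3, had 1, 2 and 4 reads in G2A livers and 2, 6 and 4 reads in WT livers. Snord99, from Snhg12, had 1, 2 and 0 reads in G2A livers and 2, 2 and 2 reads in WT livers. These genotypes overlapped or touched in every case. Snord52, in the span of 1110038B12Rik, had 2, 3 and 2 reads in G2A livers and 5, 2 and 0 reads in WT livers. Snora61, from Snhg12, had 3, 2 and 4 reads in G2A livers and 4, 5 and 4 reads in WT livers. Snord47, from the noncoding gene Gas5, had 1, 7 and 2 reads in G2A livers and 3, 2 and 6 reads in WT livers. Their adjusted p (limma) ran from 0.175 in Snord12 to 0.752 in Snord47, without Snord70, which did not pass the filter.

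Counted in reads the order was another. The 5 members with the most reads were Snord22 (352), Snora65 (221), Snora81 (212), Snora68 (130) and Snord16a (118), and they held 37.7% of all snoRNA reads. Snord22, Snora65 and Snora81 overlap an annotated exon of their host, whereas Snora68 and Snord16a lie in host introns. Snord22 ranked only 18 by mean FPKM. Across the 76 members, Spearman's rho of mean FPKM was 0.220 with total reads and 0.698 with the FPKM of 1 read, a description in which all points share the same 6 libraries. Snora65, from Rpl12, had 44, 27 and 34 reads in G2A livers and 43, 43 and 30 reads in WT livers, and Snord16a, from Rpl4, had 10, 18 and 21 reads in G2A livers and 17, 26 and 26 reads in WT livers. Both overlapped between genotypes (adjusted p = 0.703 and 0.375, limma).

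**Figure D4:**
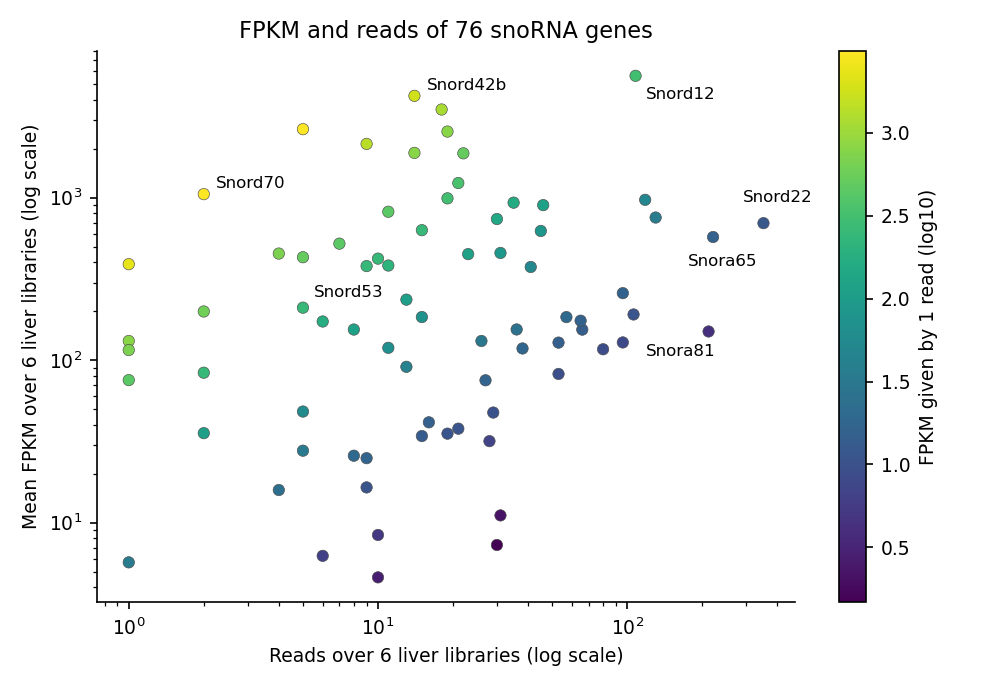
Mean FPKM over the 6 livers against total reads (both log axes) for the 76 snoRNA genes, coloured by the log10 of the FPKM given by 1 read. Snord22 has the most reads (352) at 696 FPKM, whereas Snord70 reaches 1050 FPKM on 2 reads.

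A 0 in every liver was most frequent in the shortest genes and absent from those with 120 or more bases. The share was similar in both length bins between 60 and 120 bases. All 4 members shorter than 48 bases and both members of 48 bases were at 0 in every liver, although they had 81 and 42 reads in the MEF libraries. Of members with 49 to 59 bases, 4 of 13 were at 0 in every liver. Of those with 60 to 79 bases, 6 of 33 were at 0 throughout, as were 6 of 30 with 80 to fewer than 120 bases and 0 of 22 with 120 or more. A liver value of 0 in the shortest genes is therefore a listed 0 and not a measured absence. In each G2A liver 61, 64 and 65 members were above 0, and in each WT liver 65, 68 and 66. Of the 23 members at 0 in all livers, 14 had MEF reads, 200 in all, and 9 were at 0 in both tissues.

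A host gene was found for 98 members, in 71 distinct genes. For 83 members the host span on the same strand came from the NCBIM37 annotation, with 52 members in an intron and 31 overlapping an annotated exon; for 15 it came from RefSeq spans, whose strand was not given. The deposited values do not tell whether a read came from a snoRNA or from the host transcript, so a split by place is given. The places use the NCBIM37 spans, most of which are longer than the RefSeq lengths behind the values. The 28 whole-read members that overlap a host exon had 256, 230 and 255 reads in G2A livers and 322, 330 and 306 reads in WT livers, a scaled ratio of 0.776. The 38 in host introns had 128, 134 and 151 reads in G2A livers and 157, 178 and 174 reads in WT livers, a ratio of 0.815. Neither of these sums overlapped between genotypes. The 10 members with no host in that annotation had 19, 14 and 18 reads in G2A livers and 30, 25 and 16 reads in WT livers, a ratio of 0.720, and these overlapped.

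Of the 71 hosts, 69 were tested in liver and none was called. At an unadjusted p under 0.05 stood 15 hosts (21.7%), all lower in G2A livers, and their median log2 fold change was -0.08. Without overlap 21 hosts were lower (30.4%, against 15.7% of all genes) and 2 were higher (2.90%, against 11.8%). Without G2A 3, 12 hosts were called lower (17.4%, against 12.2% of all genes) and 2 higher (2.90%, against 12.3%). The 21 hosts that encode cytosolic ribosomal proteins had a median of -0.07, with 18 below 0.

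Hosts listed here, all of members described above, differed little between the genotypes. Snhg1, Rpl10 and Rpl3 were nevertheless lower in G2A livers without overlap. Snhg1, host of Snord22, averaged 200 ± 3.04 FPKM in G2A livers and 218 ± 4.62 FPKM in WT livers (SD, n = 3 each), a log2 fold change of -0.13 (adjusted p = 0.190, limma). Snhg12, host of Snora16a, averaged 54.5 ± 1.57 FPKM in G2A livers and 53.5 ± 2.09 FPKM in WT livers. The log2 fold changes were 0.02 in Eif4a2, 0.08 in Tpt1, -0.09 in Rpl10, -0.11 in Rpl3, 0.01 in Rpl13a, -0.16 in Eif5 and -0.03 in Rnf149, and none was called. Wdr43, a small subunit processome gene whose RefSeq span holds Snord53, averaged 45.5 ± 6.25 FPKM in G2A livers and 49.04 ± 2.83 FPKM in WT livers, a log2 fold change of -0.11 (SE 0.10; adjusted p = 0.548). Its genotypes overlapped. The difference between a member and its host was not tested.

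The genes that build and use snoRNA particles had log2 fold changes mostly below 0 in G2A livers, with no call. Of 94 tested genes of snoRNA particles, their assembly and trimming, noncoding snoRNA hosts, ribosome biogenesis and nonsense-mediated decay, none was called. At an unadjusted p under 0.05 stood 37 (39.4%, against 21.4% of all genes), 35 of them lower, and 85 had a log2 fold change below 0, with a median of -0.19. Without G2A 3, 46 were called lower (48.9%, against 12.2% of all genes) and 1 higher (1.06%, against 12.3%).

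Of the 8 core proteins measured, all had a log2 fold change below 0 and 6 were lower without overlap, beside 15.7% of all genes. Nhp2l1, which binds box C/D RNA, averaged 189 ± 14.1 FPKM in G2A livers and 243 ± 0.906 FPKM in WT livers (SD, n = 3 each; log2 fold change -0.36, SE 0.06, adjusted p = 0.0902, limma). Fbl, the methyltransferase, averaged 210 ± 8.11 FPKM in G2A livers and 250 ± 7.48 FPKM in WT livers (-0.25, adjusted p = 0.103). Nop56 had a log2 fold change of -0.31 (adjusted p = 0.187) and Nop58 of -0.15 (adjusted p = 0.382). Among box H/ACA proteins Nhp2 averaged 117 ± 22.9 FPKM in G2A livers and 165 ± 7.24 FPKM in WT livers (-0.51, adjusted p = 0.128). The log2 fold changes were -0.30 in Gar1, -0.30 in Nop10 and -0.15 in Dkc1, the pseudouridine synthase. Without G2A 3, 7 of the 8, all but Nop58, were called lower, beside 12.2% of all genes.

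The remaining lists went the same way apart from nonsense-mediated decay. All 28 small subunit processome genes had log2 fold changes below 0 (median -0.19), among them Emg1 (-0.29, adjusted p = 0.0914) and Utp3 (-0.20, 0.127). Of 14 trimming and intron turnover genes 13 were below 0, among them the exosome subunits Exosc7 (-0.34, adjusted p = 0.0927) and Exosc4 (-0.22, 0.122). Of 13 assembly factors 12 were below 0, among them Smn1 (-0.25, adjusted p = 0.114) and Znhit6 (-0.24, 0.144). All 12 RNA polymerase I genes were below 0, among them Polr1e (-0.38, adjusted p = 0.139) and Polr1d (-0.24, 0.173). Of 11 noncoding snoRNA hosts 8 were below 0, among them Snhg4 (-0.46, adjusted p = 0.113) and Snhg5 (-0.33, 0.115). Nonsense-mediated decay genes were split, with 4 of 8 below 0, and Smg1 (0.23, adjusted p = 0.146) and Upf2 (0.18, 0.252) had the smallest p.

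**Figure D5:**
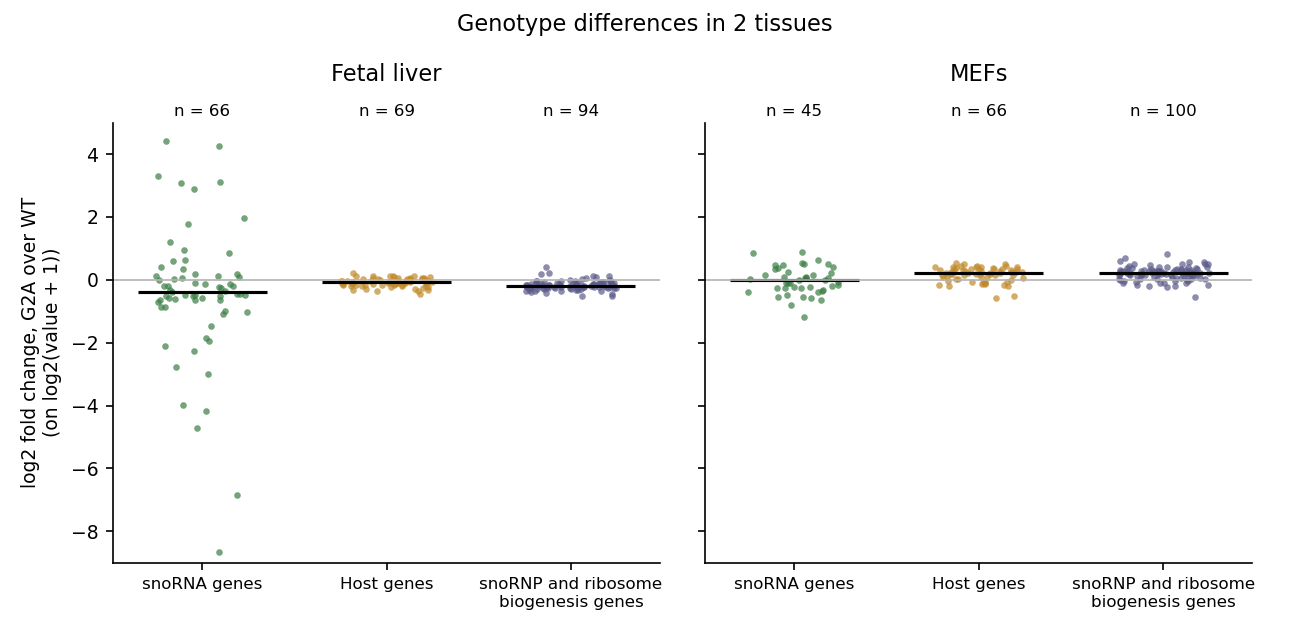
Log2 fold change of G2A over WT, on log2(value + 1), for tested snoRNA genes, host genes and snoRNA particle and ribosome biogenesis genes in livers and MEFs; lines mark medians. In liver the medians are -0.37, -0.08 and -0.19, and in MEFs 0.00, 0.22 and 0.22; the wide spread of snoRNA genes in liver includes genes with 0 in some libraries.

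In MEFs, whose values did not choose the members, the snoRNA genes showed no difference past the test. All 105 members were listed there, 45 passed the filter of at least 10 normalized reads in at least 2 libraries, and none was called among 13241 genes, where 0% were called in either direction by limma. At an unadjusted p under 0.05 stood 0 members by limma, 0 by edgeR and 1 by DESeq2, against 14.4% of all genes by limma. Without overlap 2 members (4.44%) were higher and 4 (8.89%) lower in G2A, against 18.9% and 18% of all genes. The median log2 fold change was 0.00, against 0.01 over all genes. Members held 1540 and 1794 reads in G2A MEFs and 1221, 1533 and 1858 reads in WT MEFs, which overlap.

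Snord53 was detected in every MEF library, with 7 and 10 reads in G2A MEFs and 10, 10 and 19 reads in WT MEFs. Its log2 fold change was -0.54 (SE 0.65, unadjusted p = 0.440, adjusted p = 0.713, limma), so it did not pass. It was among the 4 members lower without overlap in normalized reads, at 6.90 and 9.80 in G2A MEFs and 10.3, 10.4 and 17.9 in WT MEFs, although G2A 2 equalled WT 1 and WT 2 in whole reads. The members with the smallest p were Snora68, Snora7a, Snora17, Snord2 and Snora81. Snora68 had 120 and 99 reads in G2A MEFs and 45, 70 and 58 reads in WT MEFs (log2 fold change 0.90, SE 0.37, adjusted p = 0.356). Snora7a, from Rpl32, had 42 and 47 reads in G2A MEFs and 23, 22 and 27 reads in WT MEFs (0.84, adjusted p = 0.421). Both were higher in G2A without overlap, unlike Snora68 in liver.

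The other 3 had log2 fold changes below 0. Snora17, from Snhg7, had 11 and 19 reads in G2A MEFs and 22, 22 and 33 reads in WT MEFs (-0.79, adjusted p = 0.529). Snord2, from Eif4a2, had 2 and 8 reads in G2A MEFs and 11, 7 and 15 reads in WT MEFs (-1.17, adjusted p = 0.539). Snora81, which also lies in Eif4a2, had 40 and 44 reads in G2A MEFs and 48, 58 and 69 reads in WT MEFs (-0.48, adjusted p = 0.572), lower without overlap there as in liver. Among other members that were lower without overlap in liver, Snord22 had 39 and 60 reads in G2A MEFs and 40, 48 and 56 reads in WT MEFs (0.00), and Snora31 had 33 and 48 reads in G2A MEFs and 21, 24 and 44 reads in WT MEFs (0.46, adjusted p = 0.693). Of 100 particle and ribosome biogenesis genes tested in MEFs, 85 had a log2 fold change above 0, with a median of 0.22, and none was called.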

How the data were processed

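Total RNA from 6 fetal livers and from MEFs was sequenced. Per the labels' protocols, 50-base trimmed reads went to mm9. Cufflinks 2.2.1 and TopHat2 2.1.1 are the tools in the submitters' processing notes, with mm9 and mm10 as builds. The deposited liver values were taken as FPKM because Cufflinks is named and because they are reads over an effective length. The deposited MEF values are a normalized signal per gene, each column whole reads divided by 1 size factor (0.958 to 1.06; all values whole within 0.01), and those reads were recovered. Neither strand handling nor annotation is given in the sources used here, and near-identical or overlapping genes are uncertain. No column carried G2A MEF 3.

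Log2(value + 1) was fitted on genotype in each tissue with limma 3.58.1 in R 4.3.3 (variance trend), with Benjamini-Hochberg adjustment over all genes and a threshold of 0.05. On recovered MEF reads edgeR 4.0.16 and DESeq2 1.42.0 were alternatives. The fits were tested on simulated data, but no result of that test is given here. Reads behind liver FPKM were found as whole multiples with a tolerance of 0.02 read. The named genes were Snord53, members at 0 in 1 genotype only, up to 10 non-overlapping members per direction, the 10 highest by FPKM, the 5 smallest p in MEFs, their hosts, the core proteins and the 2 smallest p of each other list; other examples were added after their values were seen, and 1 host gene is not reported here. Members and lists were chosen with earlier results of these data known. SE and p-values measure the spread between these libraries. Counting error was not added to them. They can therefore be too small where few reads were nearly equal, as in the G2A livers for Snord83b and Snora31. Lengths and 15 host spans came from RefSeq (GRCm38.p6), without coordinates; other positions are NCBIM37.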

Additional observations from a re-analysis of the deposited data

Results flagged for a closer look

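Snora68 had values on opposite sides of WT in the tissues, without passing the test in either (adjusted p = 0.101 in liver and 0.356 in MEFs, limma): all G2A livers lay below all WT livers, with a log2 fold change of -0.48, and both G2A MEF libraries lay above all WT MEF libraries, with 0.90. The difference of these log2 fold changes, liver minus MEFs, was -1.38 (SE 0.38; unadjusted p = 0.0109, adjusted p = 0.105 over 10818 genes, limma estimates), so it did not pass the correction. The direction was shown by 3 of 3 G2A livers and 2 of 2 G2A MEF libraries.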

How the results depend on the processing

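Among all liver genes, 2 were called higher and 1 lower; quantile normalization gave 5 and 2, the replicate block gave 1 higher, and leaving out 1 library gave 0 to 1578 higher and 0 to 1562 lower, with both highest counts without G2A 3, 0 higher without WT 1, and 0 lower without WT 1 or WT 3. Snord53 was the member called lower with all libraries, and the only gene called lower. Leaving out any WT library put it outside the filter of at least 1 FPKM in at least 3 livers. It was therefore not tested in those fits, and their counts say nothing about it. Leaving out 1 library gave 0 to 8 members called lower (0 without WT 1 or WT 3, Snord83b alone without WT 2, Snord53 and Snord100 without G2A 1, 8 without G2A 3) and 0 to 1 called higher (Snord1b, without WT 2). The members' median log2 fold change of -0.37 was -0.30 with no filter, -0.28 with quantile normalization and -0.52 to -0.22 without 1 library. No host was called, against 0 to 14 without 1 library, and no particle or biogenesis gene, against 0 to 47, in both cases above 0 only without G2A 3. Among MEF genes 0 were called, against 1035 by DESeq2, 3745 with the replicate block and 0 to 3076 without 1 library (3076 without WT 3); no setting tried called a member in MEFs. The MEF median of 0.00 ran from -0.12 to 0.25 without 1 library. The cause of these shifts was not tested. The labels describe littermate pairs but do not say that numbers mark them, so the numbers were not taken to pair the libraries. Same-numbered livers deviated from their group means with correlations of 0.182, -0.099 and 0.099. With 2 MEF libraries used per genotype, both MEF pairs give the same value (0.097) by construction. Differently numbered libraries were not compared, so these correlations do not decide whether the numbers mark pairs. Few reads limit the liver members: 169 of 456 values are 1 to 3 reads.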
